A study of Mus musculus with 6 samples.

Results

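EGY clonotypes are δ chain rearrangements of *Trdv1* or *Trdv5* with *Trdd2* and *Trdj1* that carry at least 1 inserted nucleotide and read *Trdd2* in the frame that gives the residues glutamate, glycine and tyrosine (EGY). They were chosen from the table of the first read of each library as clonotypes with the EGY motif and without GGI (glycine, glycine, isoleucine) or RRD (arginine, arginine, aspartate), the motifs of the other reading frames of *Trdd2*. A clonotype was 1 CDR3 nucleotide sequence with its V and J segment. The rule found 349 EGY clonotypes among the 1936 clonotypes of *Trdv1* and *Trdv5*. Among the 1588 with *Trdd2*, *Trdj1* and at least 1 insertion, 487 had GGI, 271 had RRD, 466 had none of the 3 motifs and 15 had more than 1.

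The δ chain of the T cell receptor is joined from V, D and J segments in developing T cells, and its CDR3, which spans the joint, is the most variable loop of the receptor. Exonucleases trim the segment ends, cut hairpins can leave short palindromic (P) nucleotides, and terminal deoxynucleotidyl transferase adds random N nucleotides. The enzyme is little active before birth, so joints with N nucleotides are typical of T cells that arise later. A δ chain can hold *Trdd1* and *Trdd2* in tandem, and D segments can be read in each frame.

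γδ T cells came from peripheral lymph nodes (pLNs) of Vγ4-/-/Vγ6-/- mice (strain B6.Cg-Tcrgtm1lku), which lack Vγ4 and Vγ6 T cells. Cells were stimulated with PMA and ionomycin and sorted by a secretion assay into 3 IL-17neg and 3 IL-17pos samples, each group with the numbers 13-01, 20-01 and 27-01. All samples shared the genotype and the stimulation, and no wild-type sample is among them. The labels do not say what the numbers stand for or whether samples came from separate mice, so p-values measure the spread between these samples, which may be technical.

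Between 95800 and 142163 reads of *Trdv1* and *Trdv5* were counted per sample. EGY clonotypes held between 14972 and 24210 of these reads. No molecular identifiers are described, so reads are not independent molecules, and intervals of read shares (Wilson, 95%) cover counting error only.

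The germline segments show where the EGY frame lies. They were read from GRCm38 with its RefSeq annotation, 5′ to 3′ on the coding strand, and capitals mark the 9 bases of *Trdd2* that encode EGY. *Trdd1* lies at chr14:54113468-54113476 and *Trdd2* at chr14:54122226-54122241, both on the plus strand. *Trdv1* (chr14:53881612-53882217) and *Trdj1* (chr14:54123138-54123188) also lie on the plus strand, whereas *Trdv5* (chr14:54148662-54149201) lies downstream on the minus strand. For V segments and *Trdj1* only the part within the CDR3 is shown.
Trdv1: tgtggagggaaag
Trdv5: tgtgcctcggggtat
Trdd1: atggcatat
Trdd2: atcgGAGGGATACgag
Trdj1: ctaccgacaaactcgtcttt
The rule itself fixes part of what EGY clonotypes share. The motif needs these 9 bases or synonymous ones, so no EGY clonotype can lack the middle of *Trdd2*, and the reading frame fixes the number of CDR3 bases before the motif to a multiple of 3.

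The EGY clonotype with most reads in each sample is shown first, in the order IL-17neg 13-01, 20-01 and 27-01 and IL-17pos 13-01, 20-01 and 27-01, to show the most abundant joint of every sample. Clonotypes are numbered by their share of reads summed over the samples, and capitals mark the EGY codons.
EGY-2: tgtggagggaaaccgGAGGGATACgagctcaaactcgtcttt
EGY-1: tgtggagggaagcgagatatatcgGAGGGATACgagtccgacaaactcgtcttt
EGY-40: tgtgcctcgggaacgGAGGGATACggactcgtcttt
EGY-6: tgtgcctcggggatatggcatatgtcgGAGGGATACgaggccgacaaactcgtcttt
EGY-3: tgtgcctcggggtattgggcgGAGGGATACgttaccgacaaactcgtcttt
EGY-41: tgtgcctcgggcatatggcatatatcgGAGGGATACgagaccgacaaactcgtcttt
EGY-2 (*Trdv1*) had 3117 reads in IL-17neg 13-01, 2.90% of the sample's *Trdv1* and *Trdv5* reads (95% interval 2.799 to 2.9997%). EGY-1 (*Trdv1*) had 4577 reads in IL-17neg 20-01, a share of 3.44% (3.35 to 3.54%). EGY-40 (*Trdv5*) had 888 reads in IL-17neg 27-01, a share of 0.775% (0.726 to 0.827%). The leading clonotypes of the IL-17neg samples thus came from both V segments. Over all EGY reads, *Trdv5* took on average 48.1% in IL-17neg and 48.0% in IL-17pos samples. The leading clonotypes alone therefore do not give the V use of a group. Those of all 3 IL-17pos samples used *Trdv5*. EGY-6 had 2615 reads in 13-01 (2.65%, 2.55 to 2.75%). EGY-3 had 2619 reads in 20-01 (2.73%, 2.63 to 2.84%). EGY-41 had 1054 reads in 27-01 (0.741%, 0.698 to 0.787%). The leading clonotype held a smaller share in both samples numbered 27-01 than in the other 4.

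EGY-2 was also the most abundant clonotype with exactly 1 insertion and the most abundant without a D–J insertion. EGY-40 had the shortest EGY CDR3 with at least 10 reads, at 12 amino acids, a length shared with EGY-187. Further clonotypes show the range of joints. EGY-12 was found in 3 samples, and EGY-7 was the most abundant counted without a V–D insertion. EGY-111 was the longest with at least 10 reads, at 26 amino acids.
EGY-12: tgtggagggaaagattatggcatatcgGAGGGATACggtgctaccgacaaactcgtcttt
EGY-7: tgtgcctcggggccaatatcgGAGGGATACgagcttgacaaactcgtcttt
EGY-111: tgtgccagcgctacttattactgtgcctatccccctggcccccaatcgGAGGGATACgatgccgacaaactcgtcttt
EGY-12 (*Trdv1*) had 1521 reads in IL-17pos 13-01. Only EGY-1 was found in more than 3 samples, and EGY-2, EGY-12, EGY-35 and EGY-55 tied at 3, of which the 2 with the higher summed share are shown. EGY-7 (*Trdv5*) had 2539 reads in IL-17neg 13-01. Between its first 12 bases, which match *Trdv5*, and the 4 bases atcg of *Trdd2* stand the letters ccaat. The deposited borders place these letters within V or D, so they were not counted as an insertion. EGY-111 had 326 reads in IL-17pos 27-01 and 38 nucleotides counted as V–D insertion, the most of any EGY clonotype. The first 22 of these 38 match *Trdv5* itself, from before its conserved cysteine codon into the first bases after it, and 16 lie after the match. The CDR3 start of EGY-111 was therefore set upstream of that codon, and its length and insertion count include V sequence. No other EGY clonotype had 12 or more consecutive bases of its V segment within the V–D insertion.

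No EGY clonotype reached 10 reads in more than 1 sample. IL-17neg samples 13-01, 20-01 and 27-01 held 30, 34 and 126 EGY clonotypes, and IL-17pos samples of the same numbers held 36, 43 and 114. Both samples numbered 27-01 had more than the other 4, and they also had more clonotypes of *Trdv1* and *Trdv5* in all (699 and 648, against 166 to 276). Over the samples, EGY clonotypes occurred 383 times. Of the 349 clonotypes, 321 (92.0%) were found in 1 sample, 23 in 2, 4 in 3 and 1 in 4, and none in 5 or 6. Averaged over samples, 23.6% of a sample's EGY clonotypes were found in 2 or more samples, against 30.2% for GGI and 29.0% for RRD. Neither difference from EGY passed after adjustment, as given below. The share over all *Trdv1* and *Trdv5* clonotypes is not given here.

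The 28 EGY clonotypes found in several samples had one leading sample with 120 to 4577 reads (median 947) and at most 3 reads in any other. The reads in the leading sample were at least 120 times those in the next (median ratio 886.5). EGY-1, found in 4 samples, had 4577 reads in IL-17neg 20-01, 2 in IL-17neg 27-01, 1 in IL-17neg 13-01 and 1 in IL-17pos 13-01. EGY-12 had 1521 reads in IL-17pos 13-01 and 1 each in IL-17neg 13-01 and IL-17pos 20-01. These occurrences in lesser samples numbered 34, of which 33 had 1 or 2 reads. With at least 10 reads required, 217 EGY clonotypes remained and none reached it in 2 samples. With the same minimum, 1 of 317 GGI and 1 of 177 RRD clonotypes were found in 2 or more.

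Sharing crossed the IL-17 groups in 24 of the 28, lay within IL-17neg samples in 3 and within IL-17pos samples in 1. Most possible pairs of samples cross the groups, and the same count over all clonotypes is not given here. The count is therefore not read as a trait of EGY clonotypes. The pair with most shared clonotypes was IL-17neg 20-01 with IL-17pos 27-01, at 10, which was 29.4% of the EGY clonotypes of the former and 8.77% of those of the latter. IL-17pos 27-01 led in 9 of these 10. IL-17neg 13-01 shared 5 with IL-17pos 13-01, 16.7% and 13.9% of their EGY clonotypes. No pair of samples shared an EGY clonotype with more than 3 reads in the lesser sample. Reads of one library counted in another were not tested as a cause.

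Of the 166 occurrences with under 10 reads, 102 (61.4%) were near copies, defined as differing by 1 to 3 bases from a clonotype of the same sample, V segment and length with at least 5 times their reads. Of these, 12 differed by 1 base, 72 by 2 and 18 by 3, and the median ratio of reads was 217. The same search in each other sample found 3.2 on average. All but 2 of the 102 were copies of another EGY clonotype. A further 34 of the 166 were the lesser occurrences of clonotypes led by another sample. That leaves 30, or 18.1%, that were neither.

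Among the 217 occurrences with at least 10 reads, 18 (8.29%) were near copies. Of these, 16 differed by 1 base, which was a transition (purine to purine or pyrimidine to pyrimidine) in all 16, at ratios of 6.22 to 17.2. Protein sequence was unchanged in 10 of the 18. EGY-141 is shown beside EGY-3, with which it shares IL-17pos 20-01. It differs by G24A, counted from the first base of the CDR3, within the EGY codons, and had 152 reads against 2619.
EGY-3: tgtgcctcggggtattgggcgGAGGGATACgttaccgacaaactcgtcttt
EGY-141: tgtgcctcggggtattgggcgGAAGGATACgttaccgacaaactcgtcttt
Likewise EGY-187 had 79 reads beside the 888 of EGY-40 in IL-17neg 27-01 and differed by A21G. Near copies made up 31.3% of EGY, 26.8% of GGI and 28.2% of RRD occurrences. Amplification and sequencing errors were not tested as a cause. Without near copies and lesser occurrences, 229 EGY clonotypes remained, 199 of them with at least 10 reads. By sample they numbered 20, 13 and 75 in IL-17neg and 19, 25 and 77 in IL-17pos samples 13-01, 20-01 and 27-01. IL-17neg 20-01 lost the largest part, 21 of 34, of which 14 were lesser occurrences. Results below are given with all EGY clonotypes. Values with near copies merged, or with clonotypes kept in their leading sample, are added for the group comparisons they moved by over 1.5 times.

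The shares of EGY reads in IL-17pos and IL-17neg samples overlapped. EGY clonotypes took 17.6% (95% interval 17.4 to 17.9%), 14.4% (14.2 to 14.6%) and 14.97% (14.8 to 15.2%) of reads in IL-17neg 13-01, 20-01 and 27-01. In IL-17pos samples they took 19.3% (19.1 to 19.6%), 15.6% (15.4 to 15.9%) and 17.03% (16.8 to 17.2%). Means were 15.7% ± 1.73 (SD, n = 3) and 17.3% ± 1.87 (SD, n = 3), a difference of 1.65 percentage points that was smaller than either SD (exact two-sided permutation test, p = 0.3, adjusted p = 0.45 over 6 results). It was 0.656 without IL-17pos 13-01, 1.02 without IL-17neg 20-01, 2.50 without IL-17pos 20-01 and 2.64 without IL-17neg 13-01. Between samples of one number, the IL-17pos share was higher by 1.67, 1.22 and 2.06 points in 13-01, 20-01 and 27-01. With 3 samples against 3 the smallest p that 20 assignments allow is 0.1. The difference became -0.0672 when the frame was read from the position of *Trdd2* in the CDR3 instead of from the motif. Mean shares were then higher, at 23.98% in IL-17pos and 24.05% in IL-17neg samples.

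Counted as clonotypes, EGY made up 15.2%, 15.4% and 18.0% of the IL-17neg samples and 21.7%, 15.6% and 17.6% of the IL-17pos samples. IL-17pos 13-01 was highest, and the groups overlapped. The difference was 2.07 percentage points (exact permutation test, p = 0.5, adjusted p = 0.6). With at least 10 reads it was -1.33, with at least 2 reads 0.516 and with the second reads 0.450. Without IL-17pos 13-01 it was 0.373, without IL-17pos 20-01 it was 3.43, with clonotypes kept in their leading sample it was 0.775, and with near copies merged as well it was 0.544.

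Single clonotypes weighed unequally in the samples. The inverse Simpson index within EGY clonotypes, the number of equally abundant clonotypes with the same diversity, was 11.7, 6.12 and 46.0 in IL-17neg samples 13-01, 20-01 and 27-01. In IL-17pos samples it was 14.1, 12.3 and 47.7. The most abundant EGY clonotype held 16.4%, 23.9% and 5.18% of EGY reads in IL-17neg samples, and 13.7%, 17.5% and 4.35% in IL-17pos samples. In both groups the index was highest and the leading share lowest in the sample numbered 27-01, which also held the most EGY clonotypes. Between samples of one number, IL-17pos minus IL-17neg was 2.44, 6.15 and 1.66 for the index in 13-01, 20-01 and 27-01. For the leading share it was -2.71, -6.42 and -0.823 points. These differences were not tested. EGY clonotypes with under 10 reads held at most 0.420% of the EGY reads of a sample.

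*Trdv1* was used by 203 EGY clonotypes (58.2%) and *Trdv5* by 146 (41.8%). *Trdv5* was found in 40.0%, 64.7% and 39.7% of EGY clonotypes in IL-17neg 13-01, 20-01 and 27-01, and in 36.1%, 37.2% and 42.1% in IL-17pos samples. The IL-17neg mean of 48.1% ± 14.4 (SD, n = 3) rested on 20-01. The difference to IL-17pos samples (38.5% ± 3.19, SD, n = 3) was -9.65 points (exact permutation test, p = 0.3, adjusted p = 0.45) and -1.37 points without IL-17neg 20-01. It was -4.07 points with at least 10 reads. Weighted by reads it was -0.0961 points. Weighted in this way, *Trdv5* took 48.0%, 44.9% and 51.4% of EGY reads in IL-17neg samples and 35.0%, 55.4% and 53.6% in IL-17pos samples.

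Inserted nucleotides lay mostly between V and D. Over the 349 clonotypes the V–D insertion had a median of 5 nucleotides (quartiles 2 and 9) and the D–J insertion a median of 2 (0 and 3). Among the 217 with at least 10 reads, and among the 229 without near copies and lesser occurrences, the medians were 4 and 1. V–D insertions outnumbered D–J insertions in 247 clonotypes (70.8%). Insertions were present on both sides in 213 (61.0%), only between V and D in 99 (28.4%) and only between D and J in 37 (10.6%). Exactly 1 insertion was found in 27 (7.74%). These counts follow the deposited borders, which can take in bases outside the germline match. EGY-7 was counted without a V–D insertion despite the letters ccaat. EGY-12 was counted without a D–J insertion despite gtg between 1 kept base after the motif and a complete *Trdj1* end. A side counted without insertion can therefore still hold added bases.

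The mean V–D insertion was 6.60, 6.29 and 5.97 nucleotides in IL-17neg 13-01, 20-01 and 27-01, and 4.83, 6.56 and 5.56 in IL-17pos samples. IL-17pos 13-01 had the lowest and IL-17neg 13-01 the highest mean. The difference between groups was -0.636 nucleotides (exact permutation test, p = 0.3, adjusted p = 0.45). It was -0.228 without IL-17pos 13-01 and -1.09 without IL-17pos 20-01. With near copies merged it was -0.408, with clonotypes kept in their leading sample -1.29 and with both -1.02. Over all settings it lay between -1.33 (at least 10 reads) and -0.0464 (frame by position). The mean D–J insertion was 2.20, 2.41 and 1.96 nucleotides in IL-17neg samples and 1.92, 1.95 and 2.05 in IL-17pos samples. The groups overlapped and differed by -0.216 nucleotides (exact permutation test, p = 0.2, adjusted p = 0.45). This difference was -0.106 without IL-17neg 20-01 and -0.332 without IL-17neg 27-01. With near copies merged it was -0.0454, with clonotypes kept in their leading sample -0.553 and with both -0.332. It was -0.372 with at least 2 reads, -0.569 with at least 10 reads, -0.606 in the second-read tables and -0.655 weighted by reads. With the frame by position it was -0.0726.

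EGY CDR3s were between 12 and 26 amino acids long, with a median of 18. Mean lengths were 18.8, 18.2 and 18.4 amino acids in IL-17neg samples and 18.3, 18.9 and 18.4 in IL-17pos samples. The groups overlapped, with a difference of 0.0603 amino acids (exact permutation test, p = 0.7, adjusted p = 0.7). Its sign changed under several other settings, and it lay between -0.226 (clonotypes kept in their leading sample) and 0.425 (frame by position), with 0.140 for near copies merged and -0.105 for both changes to the clonotypes. None of the 6 group comparisons passed, in a design that cannot reach 0.05.

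*Trdv5* EGY clonotypes had longer CDR3s than *Trdv1* ones in every sample. Mean lengths for *Trdv5* were 19.4, 19.2 and 19.0 amino acids in IL-17neg 13-01, 20-01 and 27-01, and 18.8, 19.9 and 19.3 in IL-17pos samples. For *Trdv1* they were 18.4, 16.4 and 18.0 in IL-17neg samples and 18.0, 18.3 and 17.7 in IL-17pos samples. Every *Trdv5* mean was above every *Trdv1* mean. The mean difference was 1.45 amino acids (0.803 to 2.77 over the 6 samples), with the smallest p that 6 samples allow (exact sign-flip permutation test over 64 patterns, p = 0.0312, adjusted p = 0.167 over 16 results). It was higher in 6 of 6 samples but did not pass after adjustment. The germline CDR3 part of *Trdv5* is 15 nucleotides long and that of *Trdv1* 13. The V bases that matched germline from the CDR3 start had a median of 12 with either segment. Their mean was 10.6 with *Trdv5* and 10.8 with *Trdv1*, or 12.2 and 11.6 with at least 10 reads. Germline V length was not tested as a cause of the difference. Samples of the same number in both groups may share mice, in which case the 6 are not independent, here and in every within-sample test.

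The V–D insertion was also longer on average with *Trdv5*, by 1.48 nucleotides, in 5 of 6 samples (exact permutation test, p = 0.0938, adjusted p = 0.188). IL-17neg 13-01 went the other way, with 5.67 against 7.22 nucleotides. The D–J insertion differed by 0.376 nucleotides in favour of *Trdv5*, in 3 of 6 samples (exact permutation test, p = 0.312, adjusted p = 0.5). That difference was -0.257 when clonotypes were weighted by reads and 0.144 without IL-17neg 20-01. The complete germline end of the V segment was present in 83 of 203 *Trdv1* (40.9%) and 27 of 146 *Trdv5* clonotypes (18.5%). *Trdj1* was complete in 105 of 349 (30.1%).

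Of the EGY clonotypes, 32.4% had a stretch before *Trdd2* that matched part of *Trdd1*. Stretches of 5 or more consecutive *Trdd1* bases between the V end and the *Trdd2* stretch were found in 113 of 349. None was found between *Trdd2* and J. Among gaps of 5 bases or longer, the shares were 113 of 215 on the V side and 0 of 92 on the J side. The longest stretch between these borders was atggcatat, the complete segment, in 22 clonotypes, atggcat in 22 and ggcatat in 16. EGY-41, EGY-6 and EGY-12 above are examples, scored at 9, 7 and 7 bases. Bases that the borders gave to V or that belong to *Trdd2* were not scored. With them included, all 9 letters stood before the motif in 54 clonotypes (15.5%), EGY-6 and EGY-12 among them. Stretches of 6 or more bases were found in 87 (24.9%). The matches of only 5 bases were ggcat in 11 clonotypes, atggc in 10 and catat in 5. Whether such short stretches came from *Trdd1* or from other added bases was not tested. This search was added after the data had been seen.

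*Trdd1* stretches were present more often in *Trdv5* EGY clonotypes in every sample. With *Trdv5* they were found in 6 of 12, 12 of 22 and 18 of 50 clonotypes in IL-17neg 13-01, 20-01 and 27-01, and in 10 of 13, 8 of 16 and 23 of 48 in IL-17pos samples. With *Trdv1* they were found in 3 of 18, 1 of 12 and 17 of 76 in IL-17neg samples and in 7 of 23, 5 of 27 and 12 of 66 in IL-17pos samples. The lowest *Trdv5* share (36.0%) lay above the highest *Trdv1* share (30.4%). The mean share was 52.6% ± 13.5 with *Trdv5* and 19.1% ± 7.24 with *Trdv1* (SD, n = 6), a difference of 33.5 points (13.6 to 46.5) in 6 of 6 samples (exact permutation test, p = 0.0312, the smallest possible, adjusted p = 0.125 over 4 results). Among the 229 clonotypes without near copies and lesser occurrences, 45 of 93 *Trdv5* (48.4%) and 27 of 136 *Trdv1* clonotypes (19.9%) had a stretch. GGI clonotypes also had it more often with *Trdv5* (40.2% against 22.4%), as did RRD clonotypes (42.9% against 16.8%).

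CDR3s with a *Trdd1* stretch were longer, at 20.5 amino acids on average (SD 1.74, 113 clonotypes) against 17.7 (SD 1.997, 236 clonotypes). Their V–D insertions averaged 10.4 nucleotides against 3.87, while D–J insertions averaged 2.17 against 2.09. The stretch lies mostly within the V–D insertion as counted, and it needs a gap of at least 5 bases. Of the 349 clonotypes, 215 had such a gap between the V end and *Trdd2*. A longer V–D insertion and a longer CDR3 thus follow in part from how these clonotypes were chosen. With *Trdd1* bases not counted as insertions, the mean V–D insertion of all EGY clonotypes was 4.07 instead of 5.99 nucleotides, and the difference between *Trdv5* and *Trdv1* turned from 1.48 to -0.442 nucleotides (exact permutation test, p = 0.531).

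The share of EGY clonotypes with a *Trdd1* stretch was 30.0%, 38.2% and 27.8% in IL-17neg samples and 47.2%, 30.2% and 30.7% in IL-17pos samples. IL-17pos 13-01 was highest. The groups differed by 4.05 points (exact permutation test, p = 0.5, adjusted p = 0.5), by -1.54 points without IL-17pos 13-01, by 1.93 without IL-17neg 27-01 and by at most 7.16 without IL-17neg 20-01. The difference was 2.33 points with near copies merged, 2.32 with clonotypes kept in their leading sample and 2.16 with both. Compared with GGI clonotypes the share was 5.05 points higher (-8.10 to 20.7, in 4 of 6 samples; exact permutation test, p = 0.25, adjusted p = 0.333), or 1.92 points without IL-17pos 13-01 and 7.68 without IL-17neg 27-01. It was higher in all 3 IL-17pos samples, by 12.6 points on average, and in 1 of 3 IL-17neg samples, with a mean of -2.48. Compared with RRD clonotypes it was 4.65 points higher (-2.33 to 13.9, in 4 of 6 samples; exact permutation test, p = 0.219, adjusted p = 0.333), or 2.80 points without IL-17pos 13-01.

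The bases counted as insertions were rich in G and C. On the D–J side, 68.2% of 738 inserted bases were G or C, with G at 37.7%, C at 30.5%, T at 20.3% and A at 11.5%. On the V–D side the G and C share was 60.4% of 2092 bases. In the 236 clonotypes without a *Trdd1* stretch it was 69.4% of 914 bases, close to the D–J side. The *Trdd1* sequence itself is mostly A and T.

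*Trdd2* was complete in 32.3% of the clonotypes with its germline EGY codons. These germline codons gagggatac encoded EGY in 334 of 349 clonotypes (95.7%), and the other 15 used another codon. Of the 334, 192 (57.5%) kept all 4 bases before the motif and 183 (54.8%) all 3 after it, and 108 kept the complete segment. All 4 bases before the motif had been lost in 20 (5.99%), and all 3 after it in 38 (11.4%). At an untrimmed end, P nucleotides would be at before and ct after *Trdd2*. The bases at preceded it in 115 of 192 clonotypes (59.9%), and ct followed it in 117 of 183 (63.9%). The last bases of *Trdd1* are also at, and the first bases of *Trdj1* are also ct, so these letters alone do not tell P nucleotides from *Trdd1* or *Trdj1*. The deposited borders put at within D in 110 of the 115. They put ct within D in 90 and within J in 26 of the 117.

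Residues next to the motif were most often those that *Trdd2* encodes. Serine, which tcg of *Trdd2* encodes, stood before EGY in 233 of 349 (66.8%), proline in 37 (10.6%), alanine in 34 (9.74%) and threonine in 17 (4.87%). Glutamate followed EGY in 197 (56.4%), of which 189 used gag, the last codon of *Trdd2* in this frame. At this position there was glycine in 59 (16.9%), alanine in 29 (8.31%) and aspartate in 18 (5.16%). Serine and glutamate flanked the motif together in 137 (39.3%). Before serine, isoleucine stood in 125 of 233 (53.6%), and after glutamate, leucine stood in 121 of 197 (61.4%). With at least 10 reads, serine stood before EGY in 69.1% and glutamate after it in 59.0% of 217 clonotypes.

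The 349 nucleotide sequences encoded 322 CDR3 proteins, of which 25 had 2 or more nucleotide forms and none had more than 3. All forms of 21 of the 25 proteins had the same leading sample. Of the 27 forms beside the most abundant one, 22 were near copies in that sample. Among the 229 clonotypes without near copies and lesser occurrences, 5 of 224 proteins had several forms. No protein had 10 or more reads in 2 samples.

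In comparison with the other frames, EGY was less frequent than GGI in every sample. EGY made up 19.5%, 19.9% and 22.4% of N-added *Trdd2* clonotypes in IL-17neg 13-01, 20-01 and 27-01, and 26.1%, 19.1% and 21.3% in IL-17pos samples. GGI made up 31.8%, 36.8% and 30.2% in IL-17neg samples and 35.5%, 27.1% and 30.7% in IL-17pos samples. The difference was -10.6 points (-16.96 to -7.82) in 6 of 6 samples, with the smallest p possible (exact permutation test, p = 0.0312, adjusted p = 0.167). It ranged from -13.4 to -8.92 over the alternative settings other than leaving out a sample. With near copies merged, it was -12.8.

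RRD made up 13.6%, 12.9% and 18.7% in IL-17neg samples and 10.9%, 19.1% and 17.8% in IL-17pos samples. EGY was more frequent in 5 of 6 samples and equal in IL-17pos 20-01, by 5.89 points on average (exact permutation test, p = 0.0625, adjusted p = 0.188). The rule asks for the intact motif, and the stretch of *Trdd2* needed differs between frames, so these shares depend on trimming as well as on the frame. Among clonotypes with none of the motifs, 19 were near copies of an EGY clonotype.

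EGY and GGI clonotypes did not differ in insertions or length beyond the spread between samples. V–D insertions averaged 5.97 ± 0.679 and 6.05 ± 0.698 nucleotides (SD, n = 6), with a difference of -0.0765 (-1.64 to 0.714; exact permutation test, p = 0.875). D–J insertions averaged 2.08 and 2.03 nucleotides, a difference of 0.0534 (-0.576 to 0.491; exact permutation test, p = 0.844). CDR3 lengths averaged 18.5 amino acids in both, with a difference of -0.000460 (-0.503 to 0.766; exact permutation test, p = 1). None of these passed, and each changed sign under other settings.

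Against RRD clonotypes, CDR3s of EGY clonotypes were longer by 0.438 amino acids (-0.149 to 1.21), in 5 of 6 samples (exact permutation test, p = 0.0938, adjusted p = 0.188). Without IL-17neg 13-01 the difference was 0.283. V–D insertions differed by 0.306 nucleotides (-1.10 to 3.17; exact permutation test, p = 0.781), or by -0.268 without IL-17neg 13-01, 0.587 without IL-17pos 13-01 and 0.564 without IL-17pos 27-01. D–J insertions differed by -0.295 nucleotides (-1.35 to 0.179; exact permutation test, p = 0.5), or by -0.0840 without IL-17pos 13-01 and -0.196 without IL-17pos 20-01. The *Trdv5* share of EGY minus RRD clonotypes was -11.5 points on average, below 0 in 5 of 6 samples and at 0 in IL-17pos 20-01 (exact permutation test, p = 0.0625, adjusted p = 0.188). Against GGI it was -4.30 points (-23.3 to 13.9; exact permutation test, p = 0.438). It was -0.507 without IL-17neg 13-01 and -7.94 without IL-17neg 20-01. Within *Trdv5*, EGY made up 19.2% ± 5.30 and within *Trdv1* 23.9% ± 3.78 (SD, n = 6) of N-added *Trdd2* clonotypes, a difference of -4.72 points in 4 of 6 samples (exact permutation test, p = 0.219, adjusted p = 0.389). It was -8.43 points with at least 10 reads and -2.59 without IL-17neg 13-01.

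The share of clonotypes found in 2 or more samples averaged 23.6% for EGY and 30.2% for GGI. The difference was -6.57 points (-11.6 to -0.915) in 6 of 6 samples (exact permutation test, p = 0.0312, adjusted p = 0.167). It was -0.680 points with at least 10 reads and -3.46 points with near copies merged. It was -3.10 without IL-17neg 13-01, -3.19 without IL-17pos 20-01 and -4.18 without IL-17pos 27-01. Against RRD the difference was -5.37 points in 5 of 6 samples (exact permutation test, p = 0.0938, adjusted p = 0.188), or -2.08 without IL-17pos 27-01. In the second-read tables its direction turned, at 0.0280 points. Shares in IL-17neg 20-01 were the highest in all frames, at 55.9% for EGY, 57.1% for GGI and 68.2% for RRD.

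The second reads gave a partial check of the same molecules. Of the 217 EGY occurrences with at least 10 reads, 143 (65.9%) were found in the table of the second read of the same library. For *Trdv5* these were 84 of 86 (97.7%), and for *Trdv1* 59 of 131 (45.0%). The ratio of second-read to first-read counts had a median of 0.608 among those found. EGY-1 had 2351 second-read counts, EGY-3 had 1742 and EGY-6 had 1706, each in its leading sample.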

How the data were processed

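The authors amplified the δ chain by RACE PCR for *Trdv1* and *Trdv5*, sequenced it on a MiSeq, annotated the reads with MiXCR and wrote VDJtools tables. Versions and settings for joining similar sequences are not given in the sources used here. Each deposited count gives the raw reads of a clonotype, and each deposited fraction, not used here, its part of the table total. The submitters' processing notes name mm10. Of the 12 tables, the 6 of the first read gave the reported values.

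Insertions were the bases between the deposited V, D and J borders. Differences between groups were tested by exact permutation of sample means, and differences between frames or V segments by sign flips within samples. Adjustment was by Benjamini-Hochberg over 6, 16 and 4 results. *Trdd2* and *Trdd1* stretches were located as the longest exact match of at least 5 bases to the GRCm38 segments from RefSeq. Python 3.11.15, NumPy 2.4.6, pandas 2.3.3 and SciPy 1.17.1 were used. The counting of insertions, frames, stretches and near copies and the tests were tested on simulated data. The simulated joints came with known borders, so the placing of the deposited borders was not tested.

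Sequences were named by rule: the clonotype with most reads in each sample; those with 10 reads in 2 samples (none); the 3 present in most samples, where a tie went to the higher summed share; the most abundant with 1 insertion, without V–D and without D–J insertions; and the shortest and longest with 10 reads. EGY-141 and EGY-187 were chosen after their values were seen. Alternatives were minimums of 2 and 10 reads, the second-read tables, the frame by position in *Trdd2*, weighting by reads, 95800 reads drawn per sample (mean of 100 draws, first seed 17), a replicate block, each IL-17 group alone and leaving out each sample. The clonotypes, lists and tests were chosen with earlier results of these data known. Near copies, *Trdd1* stretches, and clonotypes kept in their leading sample were added after seeing the data.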

Additional observations from a re-analysis of the deposited data

Results flagged for a closer look

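The V–D insertions of EGY clonotypes compared with RRD clonotypes went in opposite directions in the IL-17 groups. Every IL-17neg sample had longer V–D insertions in EGY than in RRD clonotypes (6.60 against 3.43 nucleotides in 13-01, 6.29 against 5.95 in 20-01 and 5.97 against 5.26 in 27-01). Every IL-17pos sample had shorter ones (4.83 against 5.93 in 13-01, 6.56 against 6.86 in 20-01 and 5.56 against 6.55 in 27-01). The mean difference was 1.41 nucleotides in IL-17neg and -0.796 in IL-17pos samples, so that the IL-17pos difference minus the IL-17neg difference was -2.20. This contrast was not tested, and it was flagged because it differed between the groups, so the split adds no separate support. RRD clonotypes were few in several samples, with 15 in IL-17pos 13-01 and 22 in IL-17neg 20-01. IL-17neg 13-01, with 21 RRD clonotypes, had the largest gap. Without it, the IL-17neg mean difference was 0.525 and the contrast -1.32. Without any 1 of the other samples, the contrast lay between -2.74 and -2.05.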

How the results depend on the processing

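No comparison passed after adjustment in any setting tried, but most settings could not have let one pass. The smallest p is 0.1 for group differences, 0.0625 within samples with 1 left out, and 0.25 within 1 IL-17 group. With all 6 samples, a result at the smallest p of 0.0312 passes adjustment only if several others reach it too. Of 26 comparisons, 20 kept their direction when each sample was left out. Over the other settings, 227 of 257 values kept their direction. Causes of the changes were not tested. Lengths are in amino acids, insertions in nucleotides and shares in percentage points.

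With the second-read tables, the difference between EGY and GGI became 0.0481 for V–D insertions. EGY minus RRD became -0.0877 for V–D insertions, 0.0168 for D–J insertions and 0.0280 for the share found in several samples. *Trdv5* minus *Trdv1* became -0.156 for D–J insertions, and IL-17pos minus IL-17neg -0.107 for length. With at least 10 reads, EGY minus GGI became 0.0539 for V–D insertions and 0.143 for length, *Trdv5* minus *Trdv1* -0.00280 for D–J insertions, and IL-17pos minus IL-17neg -1.33 for the clonotype share. With at least 2 reads these were 0.107, 0.160 and -0.0903, and the group difference in length was -0.0185. With the frame by position, EGY minus GGI was 0.235 for V–D insertions and 0.0778 for length, and the group difference in read share -0.0672. Weighted by reads, *Trdv5* minus *Trdv1* was -0.257 for D–J insertions. Within IL-17neg samples, EGY minus RRD was 0.0639 for D–J insertions and EGY minus GGI -2.48 for the *Trdd1* share. Within IL-17pos samples, EGY minus RRD was -0.796 for V–D insertions and EGY minus GGI 0.163 for length.

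The next settings were chosen after seeing the data. With clonotypes kept in their leading sample, EGY minus GGI was 0.0787 for V–D insertions and 0.233 for length, and the group difference in length -0.226. With near copies merged, EGY minus GGI was -0.0842 for D–J insertions. With both, it was 0.00998 for length, and the group difference in length -0.105. Without *Trdd1* bases, V–D insertions gave -0.0486 for EGY minus RRD and -0.442 for *Trdv5* minus *Trdv1*.

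When each sample was left out, the group difference in length ranged from -0.131 to 0.234 and that in the *Trdd1* share from -1.54 to 7.16. EGY minus GGI ranged from -0.235 to 0.235 for V–D insertions, from -0.0342 to 0.179 for D–J insertions and from -0.154 to 0.1001 for length. EGY minus RRD ranged from -0.268 (without IL-17neg 13-01) to 0.587 for V–D insertions.

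With the sample number as a replicate block, the difference in read share was again 1.65 points (exact permutation test, p = 0.25). This is the smallest p that 3 pairs allow, so the block says nothing about the stability of any result. Samples of one number lay on the same side of their group means in 3 of 3 numbers for the read share, the number of EGY clonotypes, the inverse Simpson index and the share of the leading clonotype, and in 0 to 2 of 3 for the other 6 measures. The labels do not say that a number marks shared mice or a shared day, and the numbers were not taken as pairs.

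With 3 samples a group, the smallest p for a group difference is 0.1. Reads without molecular identifiers do not count cells, and under 10 reads most EGY occurrences were near copies or lesser occurrences. Numbers of sorted cells were not used here.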
